A study of Mus musculus with 42 samples.

Results

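The serpins are a superfamily of protease inhibitors, and the genes described here are all those whose symbol starts with Serpin. Of the 20672 probe sets of the table, 40 met this rule, each with a gene symbol of its own: 14 of clade A (Serpina), 18 of clade B (Serpinb) and 8 of other clades (Serpinc1, Serpind1, Serpinf1, Serpinf2, Serping1, Serpinh1, Serpini1 and Serpini2). RefSeq lists 69 mouse genes with such a symbol, and those without a probe set in the table were not analysed here. RNA of skin around excisional wounds was measured on 42 Affymetrix Mouse430V2 arrays in 9 groups. The wounds were on female db/db mice, which lack the leptin receptor and are obese and diabetic, so the control wounds share that genotype. At 24 h after 1 topical dose there were 5 arrays each of IL-22-Fc (50 µg, interleukin 22 fused to an antibody Fc), VEGF (20 µg) and PDGF (50 µg), and 4 of the control. At day 7, after repeated doses from day 0, there were 5 arrays of IL-22-Fc, 5 of VEGF, 3 of PDGF and 5 of the control. The labels keep these doses of VEGF and PDGF at day 7 and give none for IL-22-Fc. The study's methods have 50 µg for every protein, VEGF included, and the design text has 20 µg for IL-22-Fc. Control wounds received an antibody against ragweed according to the labels and a control Fc according to the methods. The remaining 5 arrays are of untreated skin at day 0, for which no genotype is stated. The strain label of all arrays is C57BL/6, while the methods give the db/db mice a BKS.Cg strain name. Comparisons at 1 time share their control arrays, and both comparisons with untreated skin share its arrays.

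A serpin inhibits a protease by offering an exposed loop as bait. The protease cuts the loop, the serpin snaps into a new fold, and the enzyme is trapped and distorted. Clade A members are mostly secreted and many come from the liver, such as the Serpina1 genes (antitrypsin) and Serpina6 (which carries corticosteroids). Clade B members lack a classical signal peptide and act mainly inside cells, and a run of them is expressed in stratified epithelia, where they limit the proteases of cornification, inflammation and cell death. Some serpins inhibit nothing: Serpinh1 (HSP47) is a collagen chaperone of the endoplasmic reticulum, and Serpinb5 (maspin) has no known target protease.

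The 18 clade B members lie in clusters, 7 on chromosome 1 in the order Serpinb5, Serpinb12, Serpinb3a, Serpinb11, Serpinb7, Serpinb2 and Serpinb8, and 11 on chromosome 13. RefSeq promoters (GRCm38.p6, 250 bases before to 50 after the start) matched 34 of the 40 members. The letters TGANTCA are a looser form of TGAGTCA or TGACTCA, the word of AP-1 factors. They stood in the promoter of 6 of the 7 chromosome 1 genes (85.7%) and in 0 of the 10 matched chromosome 13 genes. The background was 8.97% of 27025 genes and 7.81% of 32851 promoters. Over all members TGANTCA stood in 8 of the 34 (23.5%), the others being Serpina1b and Serpina1c, which hold TGACTCA. Among the chromosome 1 genes only Serpinb7 and Serpinb8 held the stricter AP-1 word, as TGAGTCA. Serpinb5, Serpinb12, Serpinb11 and Serpinb2 had A or T at the free base. TGANTCA was chosen after the expression values were known, and the 7 genes are tandem copies of related sequence, so the share is a description and no site. It reads the same on both strands, as does TTCNNNGAA, the word of STAT factors such as the one that IL-22 activates, and the words do not overlap in the promoters shown. TTCNNNGAA stood in 6 of the 34 members (17.6%), against 9.55% of genes and 8.3% of promoters, and of the chromosome 1 genes only Serpinb2 held it. The windows below give TGANTCA in capitals for the chromosome 1 genes, in chromosomal order, because all 7 genes were higher with IL-22-Fc than with VEGF or PDGF at day 7.
Serpinb5, chr1:106861015-106861061, plus strand: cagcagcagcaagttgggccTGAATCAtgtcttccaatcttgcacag
Serpinb12, chr1:106934384-106934430, plus strand: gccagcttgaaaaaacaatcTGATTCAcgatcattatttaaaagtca
Serpinb11, chr1:107362113-107362159, plus strand: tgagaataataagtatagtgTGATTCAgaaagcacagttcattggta
Serpinb11, chr1:107362218-107362264, plus strand: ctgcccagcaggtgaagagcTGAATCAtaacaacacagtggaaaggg
Serpinb7, chr1:107422624-107422670, plus strand: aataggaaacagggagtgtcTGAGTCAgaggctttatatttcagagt
Serpinb2, chr1:107511309-107511355, plus strand: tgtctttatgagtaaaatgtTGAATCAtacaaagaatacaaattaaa
Serpinb8, chr1:107589963-107590009, plus strand: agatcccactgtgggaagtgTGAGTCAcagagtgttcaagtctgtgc
Serpinb8, chr1:107589999-107590045, plus strand: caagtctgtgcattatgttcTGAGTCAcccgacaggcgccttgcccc
The promoters of Serpinb3a and Serpina12 are shown whole, since these genes had the largest rise and the largest fall with IL-22-Fc, and neither holds either word in this window.
Serpinb3a, chr1:107052254-107052553, minus strand: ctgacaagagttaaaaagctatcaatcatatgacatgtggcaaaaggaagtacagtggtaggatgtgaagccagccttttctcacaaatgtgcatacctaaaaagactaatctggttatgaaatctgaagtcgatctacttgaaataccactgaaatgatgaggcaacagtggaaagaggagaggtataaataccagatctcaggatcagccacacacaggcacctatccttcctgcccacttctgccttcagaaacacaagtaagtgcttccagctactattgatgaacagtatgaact
Serpina12, chr12:104044394-104044693, minus strand: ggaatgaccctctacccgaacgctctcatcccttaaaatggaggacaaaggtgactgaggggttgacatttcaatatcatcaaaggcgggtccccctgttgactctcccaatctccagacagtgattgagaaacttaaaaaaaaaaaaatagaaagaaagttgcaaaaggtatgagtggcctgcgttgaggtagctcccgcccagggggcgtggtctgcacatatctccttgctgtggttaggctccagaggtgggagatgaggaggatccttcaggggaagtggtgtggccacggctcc

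The expression level of a probe set is given as log2 of its deposited RMA intensity, and 1 unit is a doubling. A gene was called higher or lower where the adjusted p of limma over all 20672 probe sets was under 0.05 and the change at least 1.5-fold. The share of all probe sets called in a comparison is given in brackets after the count of serpins as its background. Array medians of the intensity ran between 49.4 and 52.6. All 10 defining markers of skin, among them Krt5, Krt1, Col1a1 and Pecam1, were measured. Probe sets of 3 Y-linked genes, which female mice lack, gave a background of 2.73 to 3.54 across the arrays. The 5′ control probe set of Gapdh, a sign of RNA integrity, stood at 11.48 ± 0.189 with PDGF at day 7 (SD, n = 3) and at 12.90 ± 0.0641 in the control (SD, n = 5). That of Actb stood at 12.66 ± 0.108 and 13.29 ± 0.18 in the same groups. The changes called with PDGF at day 7 are therefore also given with the mean of both probe sets, the 5′ level, in the fit. In that fit all 7 of these calls were lost, and over all 20672 probe sets the calls fell from 3315 to 183. The median standard error there was 0.361 against 0.119, since the 5′ level and this PDGF group overlap. Replicate 5 of untreated skin stood apart: its mean correlation with the other untreated arrays was 0.944, against 0.977 to 0.98 for those, and its 5′ Gapdh level was 11.14 against 12.5 to 12.92.

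Clade B varied most between the groups, by its median gene. The group means of a clade B gene spanned a median of 1.63 log2 units over the 9 groups, those of a clade A gene 0.376 and those of the other clades 0.772. Of the clade A members 5 (Serpina1f, Serpina4-ps1, Serpina5, Serpina6 and Serpina7) were near background in all groups, as were Serpinb9c, Serpinb9d and Serpinb9g of clade B and Serpini2, while 27 members stood above it in every group. The widest ranges were those of Serpinb3a (4.97), Serpinb12 (4.21), Serpina12 (4.20), Serpina9 (3.52) and Serpinb7 (3.00). In the 8 comparisons with the control or with untreated skin, 19 of the 40 members were called at least once, either way (background 35.3%): 12 of the 18 of clade B, 3 of the 14 of clade A (Serpina12, Serpina3n and Serpina9) and 4 of the 8 others (Serpinf1, Serping1, Serpinh1 and Serpini1). Serpinb2, Serpinb6a and Serpinb9 were above background throughout and never called in these.

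**Figure D1:**
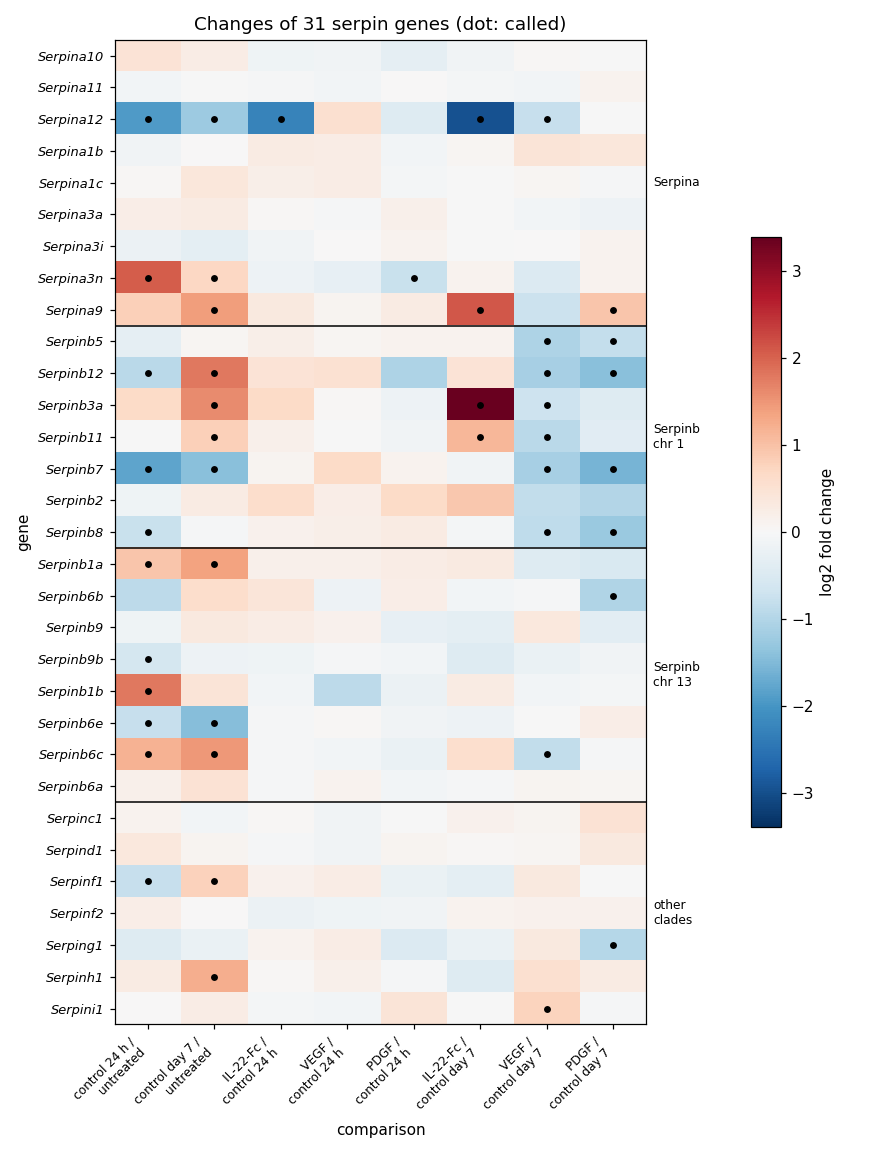
Changes of the 31 serpin genes that stood above background in at least 1 group, as log2 fold change (colour) in the 8 comparisons (columns), by clade and, for Serpinb, by chromosome and chromosomal order; a dot marks a call at an adjusted p under 0.05 and 1.5-fold. Serpinb3a with IL-22-Fc at day 7 (3.37) and Serpina12 with IL-22-Fc at day 7 (-2.96) are the extremes, and the blue block with VEGF and PDGF at day 7 is the chromosome 1 cluster.

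At day 7, IL-22-Fc raised 3 serpins (background 1.49%) and lowered 1 (background 0.803%). Neutrophil markers moved beside them: 3 of 6 were higher (median 0.72), with sums of 40800 to 43640 against 13650 to 24580 in the control, and their part in these changes was not tested. Serpinb3a rose the most. It is a mouse counterpart of the human squamous cell carcinoma antigens, which inhibit lysosomal cysteine proteases and some serine proteases. The 5 IL-22-Fc arrays had 9.60, 9.54, 9.45, 8.95 and 9.86, against 6.05, 5.98, 6.29, 6.99 and 5.25 in the control. The groups lay wholly apart, at a 10.3-fold difference (log2 fold change 3.37, SE 0.228, adjusted p = 5.87e-09). Its probe set is of the kind that can share probes with near-identical copies, so signal of its neighbours Serpinb3b, Serpinb3c and Serpinb3d cannot be told apart from its own.

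Serpina9, known in human lymphoid tissue as a serpin of germinal centre B cells, had 8.73, 8.03, 7.69, 7.75 and 7.90 with IL-22-Fc, against 5.88, 5.68, 5.87, 6.35 and 5.82 in the control. The rise was 4.29-fold (log2 fold change 2.10, SE 0.284, adjusted p = 6.86e-05), with no overlap. Serpinb11, an epithelial clade B serpin, had 9.00, 9.50, 9.62, 9.44 and 9.52 against 8.58, 8.07, 8.25, 8.58 and 8.00 in the control (log2 fold change 1.12, SE 0.138, adjusted p = 2.17e-05). Here, too, every IL-22-Fc array lay above every control array.

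Serpina12 went the other way. It encodes vaspin, an adipokine that keratinocytes also make and that inhibits kallikrein 7. Its level was 6.91, 6.05, 6.00, 6.02 and 4.96 with IL-22-Fc, against 9.04, 8.63, 9.01, 8.93 and 9.12 in the control, 7.78-fold lower (log2 fold change -2.96, SE 0.225, adjusted p = 3.45e-08). The lowest control array was well above the highest IL-22-Fc array. The exact permutation p was 0.00794 for each of these 4 genes, the smallest that 5 arrays against 5 allow. Of 5 adipocyte markers measured, 2 fell with IL-22-Fc at day 7, and their summed intensity was 2216 to 3576 against 3864 to 5392. Their part in the fall of Serpina12 at day 7 was not tested.

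All 4 genes differed in the same direction from both other treatments, which is the rule for a gene specific to IL-22-Fc (background 0.847% higher, 0.145% lower). Against VEGF, Serpinb3a was 16.6-fold and Serpina9 7.13-fold higher, Serpinb11 4.12-fold higher and Serpina12 4.49-fold lower. Against PDGF the same genes were 14-fold, 2.22-fold and 2.84-fold higher and 7.71-fold lower. With the 5′ level in the fit, Serpinb3a and Serpina12 kept all 3 calls of this rule. Serpinb11 (1.70, adjusted p = 0.143) and Serpina9 (-0.70, adjusted p = 0.814, the sign turned) lost the call against PDGF.

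**Figure D2:**
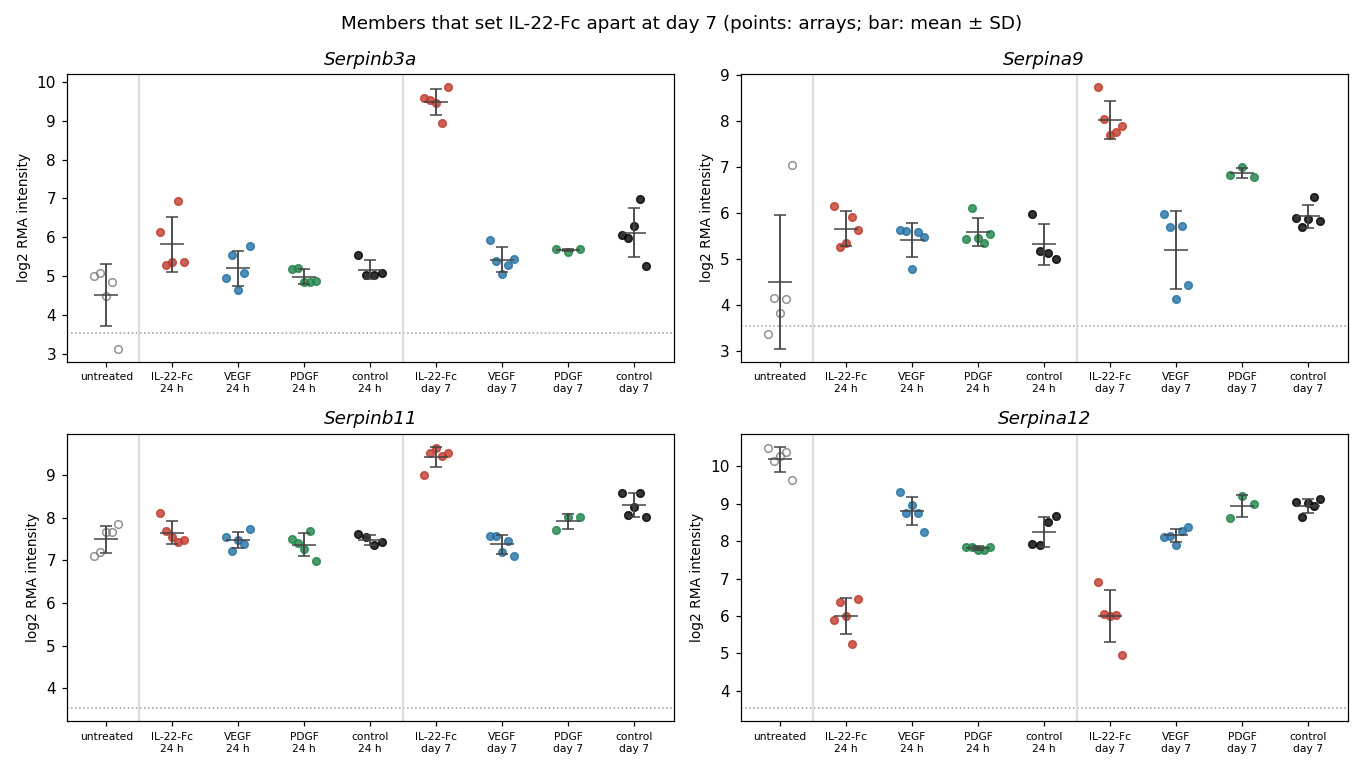
Log2 intensity of Serpinb3a, Serpina9, Serpinb11 and Serpina12 on every array of the 9 groups, with mean ± SD; the dotted line is the highest background, 3.54. The IL-22-Fc arrays of day 7 stand apart from all other day 7 arrays in each panel, and Serpina12 is already near 6 with IL-22-Fc at 24 h.

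The chromosome 1 cluster of clade B parted the treatments. With VEGF at day 7, 6 of its 7 genes fell and the seventh, Serpinb2, was at -0.84 (median of the 7 -0.92, of all probe sets -0.0069). With PDGF, 4 of the 7 fell and all 7 had a negative log2 fold change (median -1, of all probe sets 0.042). Across all 40 members, VEGF lowered 8 (background 3.58%) and raised 1 (background 1.96%), and PDGF lowered 6 (background 9.56%) and raised 1 (background 6.47%). Against the control, IL-22-Fc raised 2 of the 7, Serpinb3a and Serpinb11 (background 1.49%), and the median of the 7 was 0.48. Serpinb7 was at -0.13 (adjusted p = 0.762) and Serpinb8 at -0.07 (adjusted p = 0.81), and the other 5 had a positive log2 fold change. With the treatments set against each other directly, all 7 chromosome 1 genes were higher with IL-22-Fc than with VEGF (background 4.74% higher, 3.73% lower). All 7 were also higher than with PDGF (background 10.2% higher, 7.74% lower). The medians of the 7 were 1.6 against VEGF and 1.5 against PDGF, and those of all probe sets 0.0023 and -0.039. The count of 7 against VEGF held with each array left out in turn and with the 5′ level in the fit. Against PDGF it held with each array left out, and fell to 1 (Serpinb3a) with the 5′ level in the fit.

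Serpinb5, or maspin, shows the pattern at its tightest. Its level was 10.54, 10.74, 10.31, 10.51 and 10.29 with VEGF and 10.66, 10.77 and 10.70 with PDGF, against 11.71, 11.60, 11.50, 11.65 and 11.16 in the control. No VEGF or PDGF array reached the lowest control array, and the changes were -1.04 (SE 0.0992, adjusted p = 3.61e-07) and -0.81 (SE 0.115, adjusted p = 1.11e-05). With IL-22-Fc it stood at 11.65 ± 0.0533 (SD, n = 5), 0.13 above the control (adjusted p = 0.543).

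Serpinb7, whose loss in humans thickens the skin of palms and soles, had 8.38, 8.73, 8.63, 8.14 and 8.86 with VEGF and 7.47, 8.58 and 8.28 with PDGF, against 9.90, 9.77, 9.63, 9.78 and 9.39 in the control. All treated arrays of either kind lay below all control arrays, with changes of -1.14 (SE 0.173, adjusted p = 8.03e-05) and -1.58 (SE 0.199, adjusted p = 2.60e-06). Serpinb12, an inhibitor of trypsin-like proteases, had 7.51, 7.62, 7.41, 7.64 and 7.75 with VEGF and 6.66, 7.56 and 7.63 with PDGF, against 8.91, 8.48, 8.48, 9.19 and 8.48 in the control. It fell by 1.12 with VEGF (SE 0.161, adjusted p = 4.69e-05) and by 1.42 with PDGF (SE 0.186, adjusted p = 4.14e-06), again without overlap.

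Serpinb8, an inhibitor of furin whose loss in humans causes peeling skin, had 7.38, 7.86 and 7.78 with PDGF, against 8.91, 9.00, 8.97, 9.13 and 8.63 in the control (log2 fold change -1.25, SE 0.137, adjusted p = 4.26e-07). With VEGF it averaged 8.07 ± 0.222 (SD, n = 5) and was lower by a log2 fold change of -0.85. Serpinb11, which IL-22-Fc raised, had 7.58, 7.57, 7.18, 7.45 and 7.09 with VEGF, below every control array (log2 fold change -0.92, SE 0.138, adjusted p = 7.2e-05). With PDGF Serpinb11 was at -0.38 (adjusted p = 0.0677). Serpinb3a was lower with VEGF (log2 fold change -0.69, adjusted p = 0.0465), though its arrays overlapped those of the control, and at -0.44 with PDGF (adjusted p = 0.216).

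Serpinb2, the plasminogen activator inhibitor PAI-2, rested on a single array. The VEGF arrays of day 7 had 13.37, 10.70, 9.24, 9.63 and 9.85, those of IL-22-Fc 12.70, 12.54, 12.06, 12.16 and 12.11, those of PDGF 10.35, 10.52 and 10.33, and those of the control 11.73, 11.63, 11.51, 11.38 and 10.75. Every IL-22-Fc array was above, and every PDGF array below, all control arrays, yet neither change was called (0.91, adjusted p = 0.342, and -1, adjusted p = 0.194). Replicate 1 of VEGF, the highest of all, widened the spread that the groups share. Without it, Serpinb2 was at -1.54 with VEGF (SE 0.228, adjusted p = 8.35e-05), against -0.84 with all arrays (adjusted p = 0.309). It was then at -1 with PDGF (adjusted p = 0.00322) and 0.91 with IL-22-Fc (adjusted p = 0.0127). The array was singled out by its Serpinb2 level, so the values without it describe its weight and are no test of Serpinb2.

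Keratinocyte markers also differed between the groups at day 7, and not always in the direction of these serpins. With VEGF at day 7, 6 of 7 basal keratinocyte markers (Krt5, Krt14, Krt15, Col17a1, Itga6, Itgb4 and Trp63 were measured) and 4 of 7 suprabasal ones were lower. The basal markers summed to 8371 to 10770 with VEGF against 14060 to 17650 in the control, and the suprabasal ones to 39100 to 43030 against 54360 to 64890, with no marker near background. Their part in the fall of the chromosome 1 serpins was not tested, and in whole skin fewer keratinocytes and less RNA per keratinocyte cannot be told apart. With PDGF 1 basal marker was higher and 1 lower, and 2 suprabasal markers were lower (sums of 15900 to 18690 for the basal and 47380 to 54880 for the suprabasal markers). With IL-22-Fc 1 basal marker was lower (sums 12430 to 14150), and of the suprabasal markers 1 was higher and 1 lower, with sums of 45250 to 51470 that all lay below those of the control. The fall with PDGF stands beside the lower 5′ level. With that level in the fit, Serpinb7 was at -1.66 (adjusted p = 0.205), Serpinb12 at -1.15 (adjusted p = 0.364) and Serpinb8 at -0.93 (adjusted p = 0.31), Serpinb5 at -0.66 (adjusted p = 0.405), and none of the 7 chromosome 1 genes was called, while the median standard error over all probe sets grew to 0.361 against 0.119. With VEGF 5 of the 7 were called in that fit, and Serpinb3a was not.

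**Figure D3:**
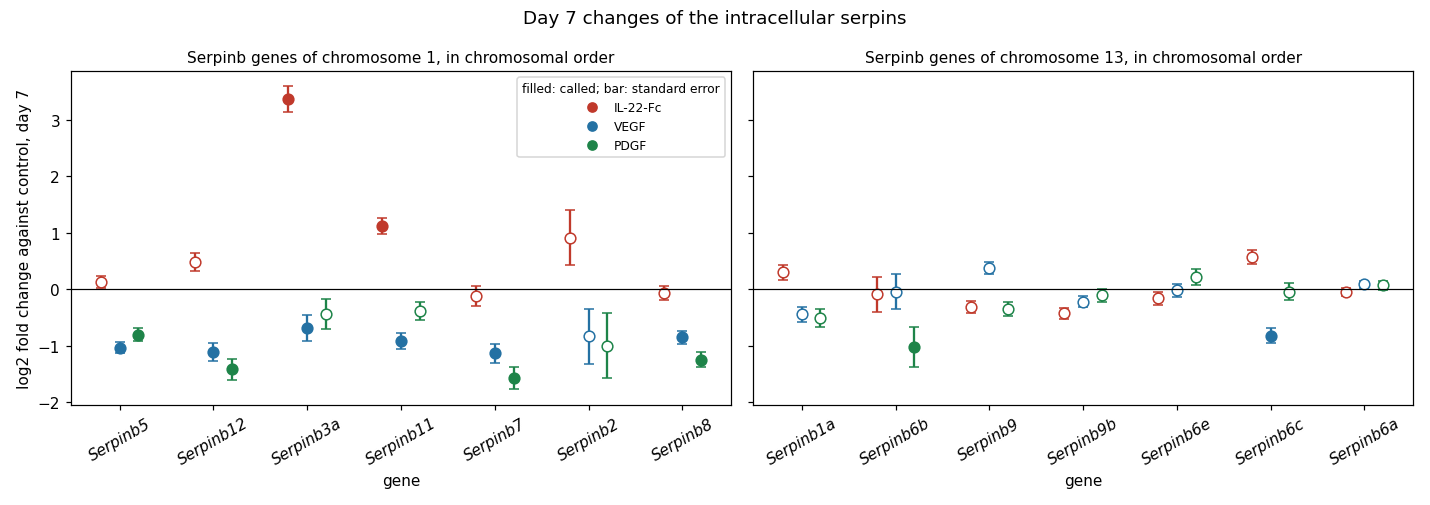
Log2 fold change against the control at day 7 (y axis) with its standard error for the clade B genes of chromosome 1 (left) and the 7 of chromosome 13 above background in all groups (right), in chromosomal order, for IL-22-Fc (red), VEGF (blue) and PDGF (green); filled points were called. On chromosome 1 the blue and green points all lie below 0 and each red point lies above the blue and green ones. On chromosome 13 most points were not called.

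On chromosome 13 few clade B genes were called against the control at day 7, and 3 of them were near background in all groups. Of its 11 genes, VEGF lowered Serpinb6c and PDGF lowered Serpinb6b, and IL-22-Fc changed none past 1.5-fold. Serpinb6c, a mouse relative of the cathepsin G inhibitor SERPINB6, had 7.43, 7.16, 6.55, 7.30 and 6.83 with VEGF against 8.10, 7.93, 7.99, 7.78 and 7.61 in the control, with no overlap (log2 fold change -0.83, SE 0.131, adjusted p = 0.00013). With IL-22-Fc it was at 0.57 (adjusted p = 0.0111), just under the fold threshold of 0.585, and higher in every array than in any of the control. Serpinb6b had 5.14, 5.67 and 5.56 with PDGF against 6.18, 5.97, 5.69, 6.51 and 8.09 in the control (log2 fold change -1.03, SE 0.356, adjusted p = 0.0288). Its arrays did not overlap, but the control was stretched by the array at 8.09, the exact permutation p was 0.107, and the call was lost without replicate 1 or replicate 3 of PDGF. With the 5′ level in the fit Serpinb6b was at -0.46 (adjusted p = 0.892). The neutrophil protease inhibitor Serpinb1a was at 0.30 with IL-22-Fc (adjusted p = 0.234), -0.45 with VEGF and -0.51 with PDGF, all short of 1.5-fold. Set directly against VEGF, 2 of the 11 were higher with IL-22-Fc and 1 lower (background 4.74% higher, 3.73% lower). Against PDGF 3 were higher and 0 lower (background 10.2% higher, 7.74% lower). Serpinb1a was higher with IL-22-Fc by 0.74 over VEGF and 0.81 over PDGF. Serpinb6c was higher by 1.4 over VEGF (adjusted p = 9.67e-08) and 0.62 over PDGF (adjusted p = 0.00254). Serpinb9, an inhibitor of granzyme B, was lower with IL-22-Fc than with VEGF (log2 fold change -0.69, adjusted p = 5.14e-05).

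Outside clade B fewer members answered at day 7. Serpini1 (neuroserpin, an inhibitor of tissue plasminogen activator) rose with VEGF, at 5.37, 5.50, 5.08, 5.36 and 5.08 against 4.74, 4.34, 4.63, 4.48 and 4.48 in the control. All VEGF arrays lay above all control arrays (log2 fold change 0.75, SE 0.107, adjusted p = 4.54e-05). Endothelial markers moved with it: 6 of 7 were higher with VEGF and 1 lower, with sums of 1849 to 2673 against 754.7 to 858.3, and their part in this rise was not tested. Serpini1 and, in the lower direction, Serpinb6c also differed from IL-22-Fc and PDGF, the rule for a gene specific to VEGF (background 1.33% higher, 1.44% lower). For PDGF that rule gave 0 members higher and 2 lower, Serpinb6b and Serping1 (background 3.25% higher, 6.58% lower). With the 5′ level in the fit none of these 4 met its rule. Against PDGF, Serpini1 was then at 0.41 with VEGF (adjusted p = 0.731) and Serpinb6c at -1.49 (adjusted p = 0.188).

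Serping1, the C1 inhibitor that restrains complement and the contact system, averaged 10.90 ± 0.440 with PDGF (SD, n = 3) and 11.86 ± 0.162 in the control (SD, n = 5). The log2 fold change was -0.96 (SE 0.138, adjusted p = 1.26e-05), and all 3 PDGF arrays, at 10.40, 11.22 and 11.07, lay below the lowest control array at 11.67. With the 5′ level in the fit the change was -0.35 (adjusted p = 0.746) and no longer called. Of 7 fibroblast markers, 4 fell with PDGF (sums of 16120 to 26970 against 35070 to 50420), and their part in it was not tested. Serpina9 was the only member that rose with PDGF, at 6.83, 7.00 and 6.78 against 5.88, 5.68, 5.87, 6.35 and 5.82 in the control (log2 fold change 0.95, SE 0.328, adjusted p = 0.0285). The call was lost without any of the 3 PDGF arrays or without control replicate 2, though the arrays of the groups did not overlap, and with the 5′ level in the fit it was at 2.68 (adjusted p = 0.168). Serpina12 was at -0.01 with PDGF (adjusted p = 0.979) and lower with VEGF (log2 fold change -0.79, SE 0.225, adjusted p = 0.0195), where 4 of 5 adipocyte markers were lower (sums of 1808 to 2975 against 3864 to 5392). With PDGF all 5 were lower (sums of 1290 to 2522), and the part of these markers in the Serpina12 values was not tested. With the 5′ level in the fit, Serpina12 was higher with PDGF (log2 fold change 2.52, SE 0.532, adjusted p = 0.0292).

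After 24 h and 1 dose, 2 calls were made among the members. IL-22-Fc lowered Serpina12 (background 0.0339% lower) and raised 0 members (background 0.0629%). Its 5 arrays had 5.91, 6.37, 5.99, 5.24 and 6.46 against 7.93, 7.89, 8.52 and 8.66 in the control. The groups were wholly apart, 4.79-fold (log2 fold change -2.26, SE 0.221, adjusted p = 5.79e-05, exact permutation p = 0.00794). Serpina12 was 1 of 7 probe sets of the whole table that were lower with IL-22-Fc at this time. The adipocyte marker sums were 5837 to 8296 with IL-22-Fc and 5195 to 7658 in the control, and 0 of the 5 markers was called. Their part in the Serpina12 values at 24 h was not tested.

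VEGF called 0 members at 24 h (background 0.0919% higher, 0.00967% lower), and at an unadjusted p under 0.05 in limma 2 lay above and 2 below the control. The extremes were Serpinb7 at 0.64 (adjusted p = 0.411) and Serpinb1b at -0.88 (adjusted p = 0.294). The sole PDGF call was Serpina3n (background 0.29% higher, 0.624% lower), which inhibits granzyme B and neutrophil proteases. It had 11.13, 11.12, 11.03, 10.40 and 10.92 with PDGF against 11.61, 11.48, 11.62 and 12.03 in the control (log2 fold change -0.77, SE 0.135, adjusted p = 0.00442, exact permutation p = 0.00794). All PDGF arrays were below all control arrays, and with the 5′ level in the fit the change was -0.62 (adjusted p = 0.141). None of the 7 chromosome 1 genes was called by limma with any treatment at 24 h (at an unadjusted p under 0.05, 2 lay above the control with IL-22-Fc and 1 with VEGF, and PDGF had 1 on each side), with medians of 0.21 for IL-22-Fc, 0.2 for VEGF and 0.11 for PDGF.

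The effects of the treatments were then set against each other between the times, as the effect at day 7 minus that at 24 h. For IL-22-Fc 3 members had a larger effect at day 7 (background 0.629% higher, 0.803% lower): Serpinb3a by 2.72 (adjusted p = 2.79e-05), Serpina9 by 1.76 (adjusted p = 0.0127) and Serpinb11 by 0.96 (adjusted p = 0.00999). Serpina12 was lower at both times, and its difference of -0.70 was not called. For VEGF 8 members had a lower effect at day 7 and Serpini1 a higher one (background 1.62% higher, 4.38% lower). Among the 8 were 5 of the 7 chromosome 1 genes, from Serpinb7 at -1.78 to Serpinb11 at -0.92, beside Serpina12, Serpinb6c and Serpinb1a. For PDGF 6 members had a lower effect and Serpina3n a higher one (background 10.3% higher, 10.6% lower), and 4 of the 6 lie on chromosome 1: Serpinb7, Serpinb2, Serpinb8 and Serpinb5.

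Control wounds at 24 h differed from untreated skin in 11 serpins, where each treatment had at most 1 call against the control at that time. The same held over all probe sets, of which the treatments called at most 0.624% in either direction at 24 h. In control wounds at 24 h 4 members were higher than in untreated skin (background 7.86%) and 7 lower (background 10.3%). Serpina3n led the rise, with 11.61, 11.48, 11.62 and 12.03 in the control wounds against 9.84, 10.60, 9.70, 9.90 and 8.15 in untreated skin. The difference was 4.14-fold with no overlap (log2 fold change 2.05, SE 0.241, adjusted p = 1.38e-08), and 1.68 without replicate 5 of untreated skin. Serpinb1b, a mouse copy of the neutrophil elastase inhibitor gene, had 5.74, 4.81, 4.68 and 5.04 against 3.38, 3.37, 3.58, 3.04 and 3.09. In untreated skin it was near background, so its log2 fold change of 1.78 (SE 0.24, adjusted p = 2.01e-07) is a lower bound. Serpinb1a rose by 0.95 (SE 0.159, adjusted p = 8.52e-06), with arrays at 9.79, 9.70, 9.84 and 9.38 against 8.72, 8.90, 9.06, 8.98 and 7.99. Serpinb6c was higher by 1.18 with arrays that overlapped, and by 0.61 without replicate 5 of untreated skin. All 6 neutrophil markers measured rose, with sums of 22980 to 35480 against 536.7 to 1174, and their part in these changes was not tested.

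Serpina12 and Serpinb7 led the fall. Serpina12 had 7.93, 7.89, 8.52 and 8.66 in 24 h wounds against 10.49, 10.14, 10.28, 10.38 and 9.62 in untreated skin (log2 fold change -1.93, SE 0.245, adjusted p = 5.75e-08), and all 5 adipocyte markers were lower. Serpinb7 had 9.21, 9.55, 9.13 and 9.44 against 11.66, 11.37, 11.27, 11.63 and 9.64 (log2 fold change -1.78, SE 0.276, adjusted p = 2.32e-06), with no overlap, and the lowest untreated array was replicate 5. Serpinf1, or PEDF, an inhibitor of vessel growth with no inhibitory serpin activity, had 10.09, 9.51, 10.31 and 10.40 against 11.02, 10.66, 11.02, 10.89 and 10.77 (log2 fold change -0.80, SE 0.145, adjusted p = 3.01e-05). Serpinb12 was lower by a log2 fold change of -0.91 (adjusted p = 0.0315), with arrays at 6.41, 4.57, 6.64 and 6.44 against 6.92, 7.28, 6.88, 7.06 and 6.51, overlapping, and without the array at 4.57 it was at -0.43 (adjusted p = 0.296). Serpinb6e (-0.78), Serpinb8 (-0.75) and Serpinb9b (-0.60) completed the 7, each with arrays that overlapped. Without replicate 5 of untreated skin the counts were 6 higher (background 8.94%) and 9 lower (background 12.2%), and the 11 calls above were all among them.

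By day 7 the set had turned over in part. In control wounds 9 members were higher than in untreated skin (background 7.4%) and 3 lower (background 8.3%). Serpinb12 was higher at day 7, with 8.91, 8.48, 8.48, 9.19 and 8.48 against 6.92, 7.28, 6.88, 7.06 and 6.51 in untreated skin (log2 fold change 1.78, SE 0.323, adjusted p = 3.02e-05), and no arrays overlapped. Serpinb3a was 3.04-fold higher (log2 fold change 1.60, SE 0.3, adjusted p = 4.57e-05), at 6.05, 5.98, 6.29, 6.99 and 5.25 against 5.00, 5.08, 4.50, 4.84 and 3.13. Serpina9 was higher by 1.42 (SE 0.394, adjusted p = 0.00406), at 5.88, 5.68, 5.87, 6.35 and 5.82 against 3.36, 4.15, 3.82, 4.12 and 7.03, where only replicate 5 of untreated skin overlapped, and by 2.06 without it. Serpinb6c had 8.10, 7.93, 7.99, 7.78 and 7.61 against 7.50, 7.23, 6.34, 6.84 and 4.12, 1.47 higher with no overlap and 0.90 without replicate 5. Serpinb1a (1.37) and Serpinb11 (0.81) rose as well.

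The collagen chaperone Serpinh1 was higher by 1.23 (SE 0.199, adjusted p = 5.14e-06) and Serpinf1 by 0.79 (SE 0.137, adjusted p = 1.49e-05). Of 15 collagen genes measured, 13 were higher and none lower at day 7 (median 1.9), and of 7 fibroblast markers 5 were higher and 1, Dcn, lower. At 24 h 6 of the 15 collagens were lower and none higher (median -0.49), with Serpinh1 at 0.27 and Serpinf1 lower. Without replicate 5 of untreated skin, where Serpinh1 had 11.69 against 9.90 to 10.25 in the others, its change at day 7 was 1.56 (adjusted p = 8.23e-12). The lower members at day 7 were Serpinb6e (log2 fold change -1.44, SE 0.193, adjusted p = 1.74e-07), Serpinb7 (log2 fold change -1.42, adjusted p = 3.43e-05) and Serpina12 (log2 fold change -1.24, SE 0.231, adjusted p = 4.46e-05). The probe sets of Serpinb6c, Serpinb6e and Serpinh1 are of the kind that can share probes with related genes, as are those of Serpina1b, Serpina10 and Serpini2. Serpinb6e had 7.82, 7.71, 7.92, 7.54 and 7.64 in day 7 wounds against 9.00, 9.25, 8.82, 9.66 and 9.13 in untreated skin, wholly apart. Without replicate 5 of untreated skin 8 members were higher (background 7.85%) and 3 lower (background 9.45%). Serpina3n, at 0.70 with that array, was then at 0.33 (adjusted p = 0.0978) and the other 11 calls held.

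**Figure D4:**
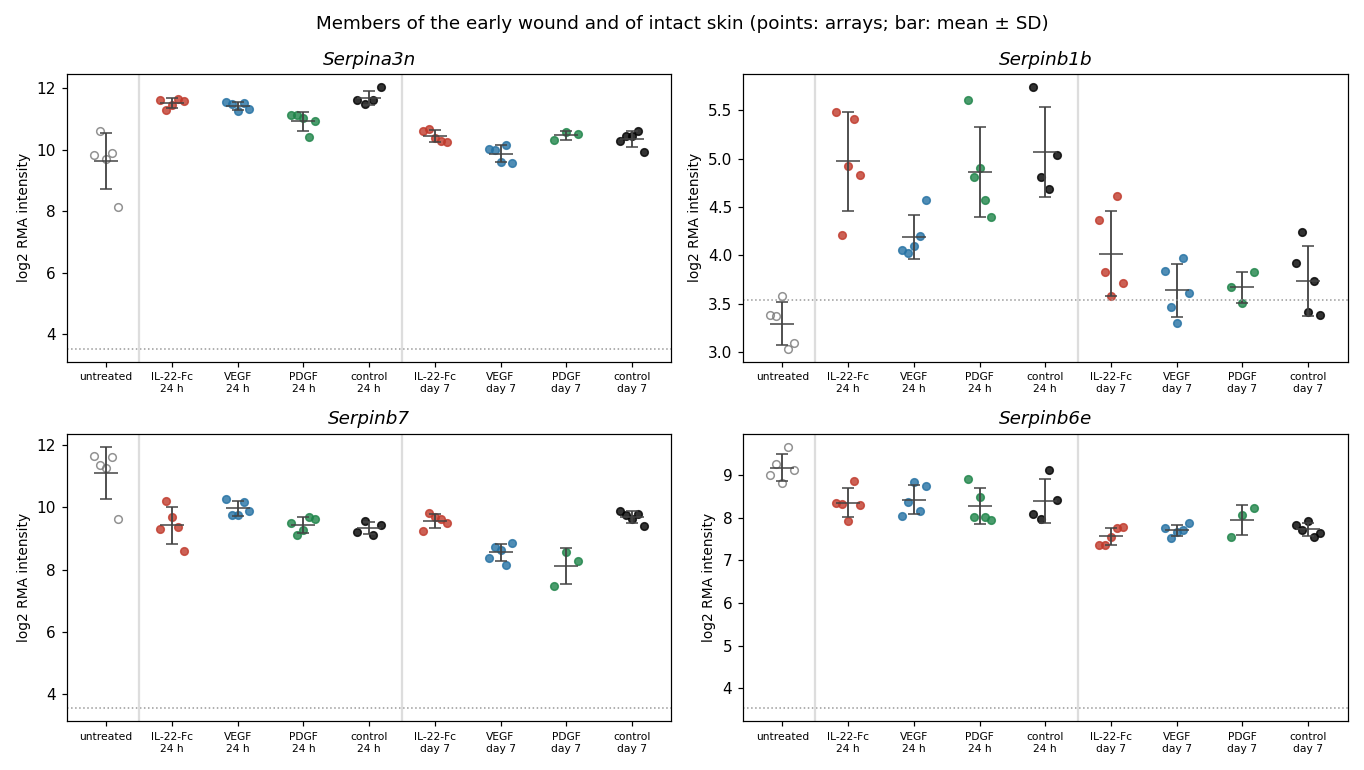
Log2 intensity of Serpina3n, Serpinb1b, Serpinb7 and Serpinb6e on every array of the 9 groups, with mean ± SD; the dotted line is the highest background, 3.54. Serpina3n and Serpinb1b are highest at 24 h in the control (11.69 and 5.07 on average), while Serpinb7 and Serpinb6e are highest in untreated skin (11.11 and 9.17), where the lowest Serpinb7 array is replicate 5.

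Proteases of the epidermis, among them targets of serpins, also differed between the treatments at day 7. Of 8 kallikreins measured, serine proteases that shed the outer epidermis, 5 rose and 0 fell with IL-22-Fc at day 7 (median 0.8), among them Klk9 by 1.58 (adjusted p = 1.16e-06) and Klk6 by 1.07 (adjusted p = 3.52e-05). Klk7, the target of vaspin, was at 0.56 (adjusted p = 0.000341), under the fold threshold. VEGF lowered 5 of the 8 (median -0.65), such as Klk5 and Klk11 with log2 fold changes of -0.94 and -0.98. Of 11 membrane serine proteases IL-22-Fc raised 3, Prss27 by 3.22, Tmprss11a by 2.15 and Prss22 by 1.46, and VEGF lowered 7 (median -0.76). PDGF raised 1 kallikrein and raised 1 and lowered 1 of the membrane proteases.

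Other target families differed between control wounds and untreated skin. Of 11 cathepsins, 7 were higher in control wounds at day 7 than in untreated skin (median 0.79), from Ctsk at 1.69 to Ctsl at 0.72, while against the control at day 7 PDGF had 3 higher and IL-22-Fc and VEGF had 0 called. Of 6 anticoagulant genes, Proc, Procr, Thbd and Pros1 of the protein C pathway beside the tissue factor pathway inhibitors Tfpi and Tfpi2, 5 were higher (median 1), such as Procr, the protein C receptor, at 1.29, and of 5 genes of plasminogen activation 3, with Plat at 2.50. VEGF raised 3 of these 6 anticoagulant genes at day 7. None of the 3 neutrophil granule proteases (Elane, Prtn3 and Ctsg) passed both thresholds in control wounds at 24 h or day 7 against untreated skin. PDGF lowered 4 of 5 caspases at day 7 (median -0.73), beside its lower 5′ level.

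Among the 21 members never called in the 8 comparisons were blood-borne serpins that the liver makes, beside 6 of clade B. Serpina10, which inhibits clotting factor X on protein Z, had group means of 4.73 to 5.20. Serpinc1, or antithrombin, had 3.69 to 4.17, Serpind1, or heparin cofactor II, 4.08 to 4.53, and Serpinf2, the inhibitor of plasmin, 6.12 to 6.35. Serpina1b and Serpina1c, of the antitrypsin family, lay between 3.05 and 3.69, near background in 7 and 5 of the 9 groups. None of these spanned a full log2 unit. Serpinb6a, counterpart of the human cathepsin G inhibitor, stood high at 11.69 to 12.27 in all groups. Of 7 hepatocyte markers Apoa1, Fgb and Fga were near background in the control wounds at both times and in untreated skin. The rest of the 7 stood above background in these groups.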

How the data were processed

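Skin was profiled on Affymetrix Mouse430V2 arrays. The authors normalized with RMA and reduced the table to the most variable probe set of each Entrez gene. The deposited values are intensity on a linear scale, from 3.85 upward. Its log2 was taken here, where log2 values had been assumed in the plan. The number of arrays limits the precision. Software was limma 3.58.1 in R 4.3.3, and matplotlib 3.10.9 in Python 3.11.15 for plots.

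Separate limma fits were made for the 18 arrays of day 7 and the 19 of 24 h, 37 arrays for differences between the times, and all 42 for contrasts with untreated skin. Benjamini-Hochberg adjustment ran over all 20672 probe sets of each contrast. Calls needed an adjusted p under 0.05 and 1.5-fold. Exact permutation tests are 2-sided. Replicate numbers are running names, so no arrays were paired, and nothing states that the arrays of a group are separate mice, so p-values measure the spread between arrays.

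Members and lists were chosen with earlier results of these data known. No member had several probe sets or shared one with another symbol. Every array's values are given for members among the 4 largest changes up or down of each of the 8 comparisons, with others added by role and said in counts. A group mean at or under the highest median of Eif2s3y, Kdm5d and Uty (Y-linked, of 4 listed) was called near background. Gene positions and promoters come from RefSeq. Protein sequences and the lean group of the design text were not analysed here. The fits were tested on simulated data. The alternatives were quantile normalization, a filter leaving out 50% of probe sets by interquartile range, no fold threshold, array weights, other arrays in the fit, the 5′ level as a covariate and each array left out in turn.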

Additional observations from a re-analysis of the deposited data

Results flagged for a closer look

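Single arrays lay far from the others of their group, by Dixon's test, in 9 of 128 sets of arrays of the named members, where chance gives about 5%. Replicate 5 of untreated skin was high for Serpina9 (7.03 against 3.36 to 4.15) and low for Serpinb7 (9.64 against 11.27 to 11.66). Replicate 2 of the 24 h control was low for Serpinb12 (4.57 against 6.41 to 6.64), and replicate 1 of that group was high for Serpinb3a (5.53 against 5.04 to 5.07). At 24 h with PDGF, replicate 4 was low for Serpina3n (10.40 against 10.92 to 11.13) and replicate 2 high for Serpina9 (6.11 against 5.35 to 5.55), and with VEGF replicate 3 was low for Serpina9 (4.77 against 5.48 to 5.62). At day 7, replicate 2 of IL-22-Fc was low for Serpinb12 (8.97 against 9.22 to 9.26) and replicate 2 of VEGF high for Serpinb6b (7.17 against 6.14 to 6.43).

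Effects that differed between day 7 and 24 h, by the interaction term of limma, were those of IL-22-Fc on Serpinb3a (2.72), Serpina9 (1.76) and Serpinb11 (0.96). For VEGF they were those on Serpinb7 (-1.78), Serpinb12 (-1.64), Serpina12 (-1.34), Serpinb5 (-1.12), Serpinb8 (-1.06), Serpinb11 (-0.92), Serpinb6c (-0.73), Serpinb1a (-0.62) and Serpini1 (0.83). For PDGF they were those on Serpinb7 (-1.69), Serpinb2 (-1.65), Serpinb8 (-1.53), Serpinb6b (-1.24), Serpinb5 (-0.92), Serpinb1a (-0.76) and Serpina3n (0.90). The PDGF differences carry the lower 5′ level of its day 7 arrays, and their part in them was not tested.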

How the results depend on the processing

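No change named by the rule against the control or untreated skin reversed its direction under the alternatives run. Of 430 recomputed values of the 31 changes named by the rule, 408 kept their call and 22 lost it. With no fold threshold 7 members were called with IL-22-Fc, 14 with VEGF and 12 with PDGF at day 7, 5 were specific to VEGF and 11 had a PDGF effect that differed between the times. The shares of all probe sets at that setting are not given here, so these counts have no background. With the 5′ level as a covariate, PDGF called 1 member at day 7 (0 of the 7 in common) and 0 at 24 h, none of the chromosome 1 genes (0) was called with PDGF against the control and 1 was with IL-22-Fc against PDGF, and the members specific to IL-22-Fc, VEGF and PDGF numbered 2, 0 and 1. That covariate and the PDGF group of day 7 overlap, so the fit leaves little to tell them apart. With all 9 groups in 1 fit, PDGF called 0 members at 24 h, and its effect differed between the times for 4. Array weights gave 2 calls with PDGF at 24 h.

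With single arrays left out, the calls at day 7 ran from 4 to 5 with IL-22-Fc, 7 to 12 with VEGF (12 without VEGF replicate 1) and 5 to 9 with PDGF, and at 24 h they were 1 and 1 with IL-22-Fc, 0 and 0 with VEGF and 1 to 3 with PDGF (3 without control replicate 2 of 24 h). Against untreated skin they ran from 9 to 15 at 24 h and 11 to 14 at day 7. Members specific to IL-22-Fc numbered 4 to 5, to VEGF 2 to 4 (4 without VEGF replicate 1) and to PDGF 0 to 2 (0 without PDGF replicate 1, and 1 without IL-22-Fc replicate 1, 2, 3 or 5, VEGF replicate 2 or 4, control replicate 4 or PDGF replicate 3). Effects that differed between the times numbered 3 to 4 for IL-22-Fc, 7 to 10 for VEGF and 5 to 8 for PDGF. Of the 7 chromosome 1 genes, 2 to 3 were called with IL-22-Fc, 5 to 7 with VEGF and 4 to 5 with PDGF, and 7 in each direct comparison. The filter left 24 members. No symbol had several probe sets, so choosing them by highest mean could not be run. No paired analysis was possible because the labels give no replicate numbers. Leaving out untreated replicate 5 for every member and the counts of the chromosome 1 genes were chosen after seeing the data. So was the account of Serpinb2 without VEGF replicate 1. The causes of these shifts were not tested.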
